A study of Mus musculus with 6 samples.

Results

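The subject here is the shortest range of the map: contacts within a 1 Mb bin, and contacts between bins 1 Mb or 2 Mb apart on the same autosome. The members are all pairs of bins on chromosomes 1 to 19 that lie on the same chromosome with bin numbers differing by 0, 1 or 2, where each bin had at least 50% of the median of 1087 listed partners on other chromosomes. Of 2482 autosomal bins, 2231 were kept. They form 6436 member pairs, of which 2231 are a bin with itself, 2130 lie 1 Mb apart and 2075 lie 2 Mb apart. All kept bins together, those of X included, form 2741311 pairs.

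Chromosome contacts were measured by Hi-C in embryonic fibroblasts of a 129xCast hybrid background, from 2 mouse embryos with 3 technical replicates each. Fibroblasts are connective tissue cells that grow readily in culture. In this assay crosslinked chromatin was cut with HindIII and ligated in dilution, and joined fragments were sequenced as pairs. All samples belong to 1 group with no treatment, their values come as 1 pooled map, and the sources used here give neither age nor sex of the embryos. No marker of the cell type can be checked in a contact map.

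The pair of parental genomes differs at many single bases, so a sequenced end that covers such a base can be assigned to the 129 or the Cast copy of a chromosome. The name of the deposited table points to contacts with one end on each parental genome, although the labels do not say so. On that reading a contact within a chromosome joins the 2 homologs, the maternal and the paternal copy, if both ends were assigned correctly. It would then not join neighbouring stretches of 1 DNA molecule. A contact along 1 molecule with 1 end assigned to the wrong copy would also be listed this way. How often that happened was not tested. Homologs in most mammalian somatic nuclei lie in separate territories and are not paired along their length. In an ordinary Hi-C map, by contrast, contacts along 1 molecule are very frequent at short distance and fall steeply with distance.

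The deposited values are balanced, meaning that each bin was scaled to a similar sum. Whole contacts were recovered from them, and the expected number for a pair multiplies 1 factor per bin, estimated from what that bin had with other chromosomes. A bin is expected to meet itself at 50% of its squared factor, because a pair of unlike bins can be joined in 2 ways (129 end in either bin) and a bin with itself in 1. Of the 1375 listed within-bin values, 910 were odd numbers of contacts, so these contacts were not entered in duplicate. Observed/expected values below 1 mean fewer contacts than 2 places on different chromosomes with the same coverage would have. Intervals are 95% Poisson intervals, or exact conditional binomial intervals for a ratio of 2 such values. Only counting error enters them: PCR can copy a molecule, and 1 pooled map has no replicates.

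The members held 6706 contacts, 0.357% of all contacts of kept bins. A kept autosomal bin had a median of 1576 contacts with other chromosomes, the lowest having 618 and the highest 2651. Per pair, trans contacts averaged 0.684. No single member pair is therefore measured well unless it stands far above its expected count, and most values below are sums over many pairs.

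Contacts within a bin stood well above all other distances. The 2231 within-bin pairs held 2673 contacts where 820 were expected, an observed/expected value of 3.26 (3.14 to 3.38). A bin had a mean of 1.198 contacts with itself against 0.368 expected. Bins 1 Mb apart held 2281 contacts, 1.47 times the expected number (1.41 to 1.53), with a mean of 1.07 per pair. Bins 2 Mb apart held 1752 contacts, 1.17 times the expected number (1.12 to 1.23). The surplus over the expected number was 1853 contacts within bins, 731 at 1 Mb and 261 at 2 Mb. The fall was therefore steep over the first steps, and the value at 3 Mb was 1.08 (1.03 to 1.14).

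The same offsets on different chromosomes showed almost none of this. Autosomal bins of equal coordinate on different chromosomes had a value of 1.05 (1.03 to 1.06), those offset by 1 Mb 1.03 (1.02 to 1.04) and those offset by 2 Mb 1.02 (1.01 to 1.03). Over these, the within-bin value was 3.12 times as high (2.99 to 3.25), the 1 Mb value 1.43 times (1.37 to 1.49) and the 2 Mb value 1.15 times (1.10 to 1.21). At 3 Mb the ratio was 1.05 with an interval of 0.995 to 1.10 that reaches 1.

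**Figure D1:**
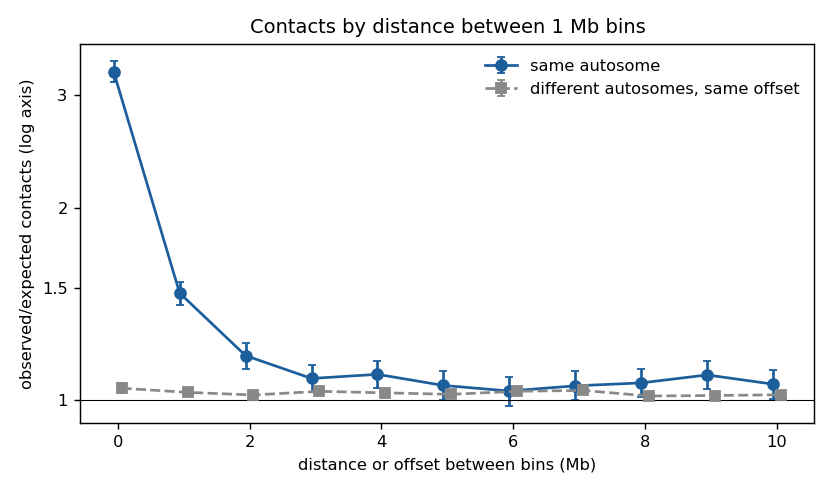
Observed/expected contacts (log axis) against the distance between 1 Mb bins on the same autosome (circles) and against the same offset on different autosomes (squares), with 95% Poisson intervals as bars. The same-autosome value falls from 3.26 within a bin to 1.47 at 1 Mb and 1.17 at 2 Mb, while the values on different autosomes lie between 1.02 and 1.05 at these offsets.

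The surplus was not spread evenly over pairs. Within bins, 128 of 2231 pairs (5.74%) held 4 or more contacts, where counting noise around the expected values gives 2.43 pairs. The highest bin held 24 contacts. At 1 Mb, 99 pairs held 4 or more against 20.7 from counting noise, and at 2 Mb 48 against 18.96. The highest counts there were 12 in both cases. The mean squared deviation from the expected count, divided by that count, would be near 1 for counting noise alone. It was 11.9 within bins, 2.23 at 1 Mb and 1.44 at 2 Mb, against 1.06 for 2349543 pairs on different autosomes. Still, 42.4% of bins had no contact with themselves, where 70.1% would have none at the expected values. The intervals given here treat contacts as independent and leave out the uneven spread over pairs. They are therefore too narrow, most of all within bins, and an interval clear of 1 is no test of a difference.

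Within-bin values also differed with coverage. Bins were ranked by their contacts with other chromosomes and divided into quartiles. In the lowest quartile (618 to 1318 contacts) the within-bin value was 6.67 (6.17 to 7.22), in the second 3.62 (3.35 to 3.92), in the third 2.64 (2.44 to 2.86) and in the highest quartile (1774 to 2651 contacts) 2.48 (2.31 to 2.66). The lowest quartile thus had 2.69 times the value of the highest (2.42 to 2.99). Bins on different chromosomes that both lay in the lowest quartile had a value of 1.01 (0.997 to 1.02). The bin factors were fitted to the same contacts that rank the bins, which holds this value near 1. It is therefore no control.

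In absolute numbers, within-bin contacts are given with and without the 57 bins called in the single-pair test described below. Those bins were picked for high within-bin counts against an expected count that is smaller at low coverage. Leaving them out therefore lowers the low-coverage means most, and the values without them cannot decide how contacts follow coverage. Over all bins the mean was 1.13 contacts per bin in the lowest quartile, 1.15 in the second, 1.10 in the third and 1.40 in the highest, while the expected mean rose from 0.170 to 0.566. Without the called bins, 34 of which were in the lowest quartile, the means were 0.601, 0.919, 1.03 and 1.31. The share of bins with 0 contacts fell from 55.2% in the lowest quartile to 44.8%, 39.1% and 30.5%. Over deciles the mean ran from 0.996 to 1.47 contacts per bin. The lowest decile, with a median of 859 contacts on other chromosomes, had 1.17 within-bin contacts per bin, and the highest, with a median of 2051, had 1.39. Across the 2231 bins, Pearson's r of within-bin contacts with contacts on other chromosomes was 0.0432, and it was 0.233 over the 2174 bins that were not called. Both describe bins that share 1 library. The ratio fell over the deciles from 10.6 (9.37 to 12.0) to 2.15 (1.92 to 2.41).

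At 1 Mb the order was the same and the range smaller. Pairs with both bins in the lowest quartile had 2.23 times the expected contacts (1.91 to 2.59), those in the second quartile 1.47 (1.26 to 1.72), in the third 1.35 (1.17 to 1.56) and in the highest 1.33 (1.19 to 1.48). At 2 Mb the lowest quartile had 1.09 (0.834 to 1.40) and the highest 1.15 (1.01 to 1.31), whose intervals overlap. For 1 and 2 Mb together the lowest quartile was 1.40 times as high as the highest (1.198 to 1.63). With a filter at 80% of the median number of partners, this ratio was 1.08 (0.900 to 1.29). Bins above the median of contacts alone gave 2.55 within bins (2.41 to 2.68), 1.36 at 1 Mb (1.28 to 1.45) and 1.12 at 2 Mb (1.04 to 1.204).

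**Figure D2:**
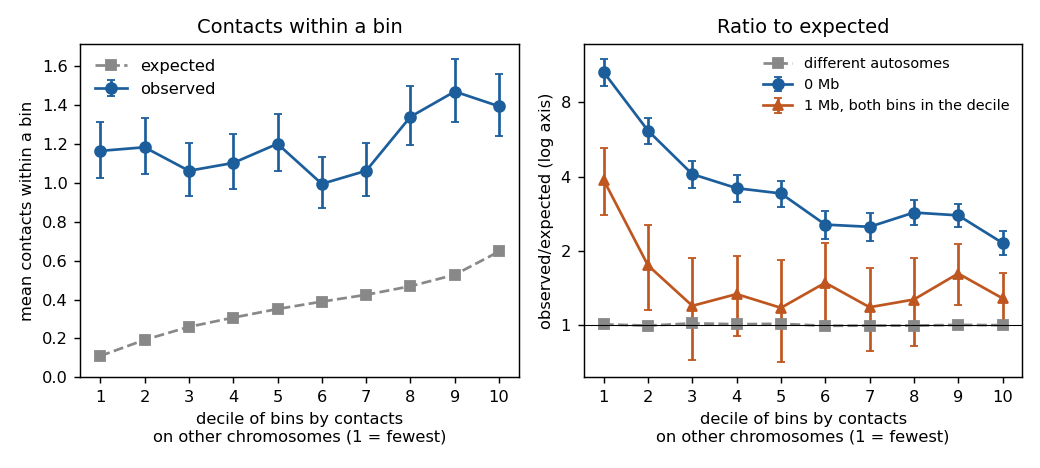
Left, mean contacts within a bin, observed (circles, 95% Poisson intervals) and expected (squares), by decile of bins ranked on their contacts with other chromosomes. Right, the ratio to the expected number (log axis) within bins (circles), at 1 Mb (triangles) and on different autosomes (squares): the within-bin mean stays between 0.996 and 1.47 while the ratio falls from 10.6 to 2.15. The fit of the bin factors holds the squares at right near 1.

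The coverage threshold of the rule cuts through this range. Bins just inside it, with 50% to 60% of the median number of partners, numbered 64 and had a mean of 1.22 within-bin contacts and a ratio of 16.05. Bins just outside it, with 40% to 50%, numbered 52 and had a mean of 0.615 and a ratio of 13.1 (8.97 to 18.5). The intervals of these ratios overlap.

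Bins next to poorly covered stretches were also high. The 189 kept bins beside a bin that had been left out had a within-bin value of 5.25 (4.60 to 5.97), against 2.85 (2.71 to 2.99) for 1433 bins more than 5 bins away. The former had a median of 1215 contacts on other chromosomes and the latter 1617. Among bins above the median of contacts, where 32 lay beside a left-out bin, the corresponding ratio was 1.07 (0.755 to 1.47). In that set, bins 2 to 5 bins from a left-out bin were 1.25 times as high as those farther away (1.11 to 1.40).

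Along the chromosome, within-bin values were higher in the outer 10 Mb than in the inner part. Mouse autosomes are telocentric, which places the centromere beside the low-coordinate end and the distal telomere at the high-coordinate end. In the low-coordinate 10 Mb the within-bin value was 3.88 (3.31 to 4.53) over 120 bins, and in the high-coordinate 10 Mb it was 4.12 (3.65 to 4.62) over 168 bins. The 1943 inner bins had 3.14 (3.01 to 3.27). The low-coordinate end was thus 1.24 times as high as the inner part (1.05 to 1.45), and the high-coordinate end 1.31 times (1.15 to 1.48). Both intervals leave out the uneven spread over bins described above.

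In the outermost 5 Mb of the low-coordinate side, 34 kept bins held 72 within-bin contacts, 6.53 times the expected number (5.11 to 8.22). Of these contacts 28 lay in 3 called bins, and without them the value was 4.23 (3.07 to 5.67). The band held 0 pairs 2 Mb apart, so no autosome had all bins of this band kept. The outermost 5 Mb of the high-coordinate side had 77 kept bins and 40 such pairs. From 5 to 10 Mb the value was 2.92 (2.35 to 3.597), and from 10 to 60 Mb it ran from 2.92 to 3.27. At the high-coordinate end the decline was more gradual. The value was 4.23 (3.498 to 5.06) in the outermost 5 Mb, or 3.32 without its 3 called bins (2.67 to 4.08), and 4.04 (3.45 to 4.70) in the 5 Mb next to it. Between 10 and 20 Mb a value of 3.52 was found (3.10 to 3.98), and 3.10 farther in than 60 Mb (2.93 to 3.27).

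The within-bin end ratios were also taken in bins of higher coverage and without the called bins. Among bins above the median of contacts, the within-bin ratio of end to inner part was 1.18 at the low-coordinate side (0.919 to 1.501) and 1.07 at the high-coordinate side (0.892 to 1.28). Without the 57 called bins, it was 1.23 (1.02 to 1.47) at the low-coordinate side and 1.10 (0.940 to 1.28) at the high-coordinate side. The called bins were picked for high within-bin counts, and 22.8% of them lay within 10 Mb of an end, against 12.6% of the other kept bins. The ratios without them therefore cannot decide their part. The part of coverage was not tested beyond these values.

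For pairs 1 and 2 Mb apart, the low-coordinate 10 Mb had 1.52 times the expected contacts (1.31 to 1.76), the high-coordinate 10 Mb 1.51 (1.35 to 1.68) and the inner part 1.31 (1.26 to 1.35). The ratio of end to inner part was 1.17 at the low-coordinate side, with an interval of 0.999 to 1.35 that reaches 1, and 1.16 at the high-coordinate side (1.03 to 1.29). The latter interval also reached 1 with the 80% filter (1.12, 0.990 to 1.27), with counts capped at 3 (1.12, 0.996 to 1.27), in bins above the median of contacts (1.12, 0.942 to 1.33), and for ends of 5 Mb (1.18, 0.967 to 1.43) or 20 Mb (1.07, 0.979 to 1.16). It did so too without chromosome 12 (1.11, 0.984 to 1.25) or 15 (1.11, 0.980 to 1.25). Ends of different chromosomes also met more than expected, at 1.10 (1.07 to 1.13) on the low-coordinate side and 1.08 (1.06 to 1.10) on the high-coordinate side. Divided by these, the local value was 1.38 (1.18 to 1.60) at the low-coordinate end, 1.40 (1.25 to 1.57) at the high-coordinate end and 1.31 (1.26 to 1.35) in the inner part, and these intervals overlap. Among bins above the median of contacts, the low-coordinate ratio at 1 and 2 Mb was 0.960 (0.705 to 1.28).

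**Figure D3:**
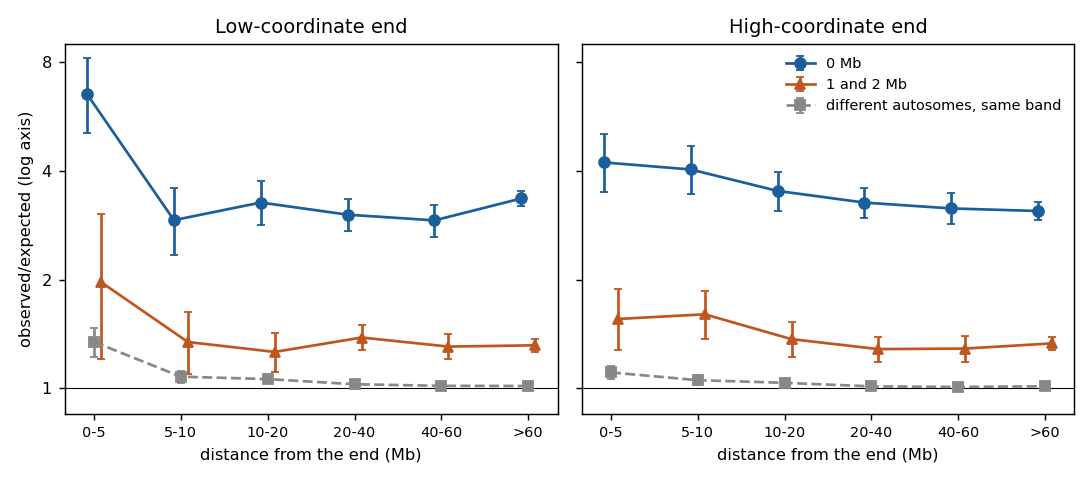
Observed/expected contacts (log axis) within bins (circles), at 1 and 2 Mb (triangles) and between bins of the same band on different autosomes (squares), by distance from each chromosome end, with 95% Poisson intervals. The within-bin value is highest in the outermost 5 Mb, at 6.53 on the low-coordinate side and 4.23 on the high-coordinate side.

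In deciles of chromosome length, the within-bin value was highest in the last decile, at 4.17 (3.75 to 4.61), and the first, at 3.77 (3.32 to 4.27). It was lowest in the seventh decile, at 2.66 (2.33 to 3.03), and the fourth, at 2.68 (2.34 to 3.05). At 1 Mb the ends were not set apart: the deciles ran from 1.28 (1.11 to 1.47) in the seventh to 1.56 (1.37 to 1.77) in the ninth, with 1.52 in the first and 1.56 in the last, and all 10 intervals lay above 1. At 2 Mb they ran from 0.910 (0.756 to 1.09) in the sixth decile to 1.39 (1.17 to 1.64) in the first.

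Compartment position was approximated from contacts on other chromosomes alone, so the local contacts did not enter it. Whether the approximation follows compartments was not tested. Chromatin of mammalian nuclei falls into an active and an inactive compartment, and bins of one compartment meet preferentially on any pair of chromosomes. Each bin received a score, the first eigenvector of the deviations of its trans contacts from their expected values. The first eigenvalue was 139 and the second 93.8, and scores of the 2130 pairs of neighbouring bins had a Pearson r of 0.528. The sign was set so that bins of the top quintile met each other most on different chromosomes, at 1.21 (1.202 to 1.22), against 1.10 (1.09 to 1.11) for the bottom quintile. Gene positions on the build of the files were not used here, so neither end of the score is called active.

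Local contacts were compared between quintiles of the score. Pairs 1 and 2 Mb apart with both bins in the top quintile had 1.67 times the expected contacts (1.52 to 1.83), and those with both in the bottom quintile 1.37 (1.21 to 1.56). The quintiles between them had 1.11 (0.938 to 1.30), 1.26 (1.08 to 1.45) and 1.34 (1.17 to 1.53), the last nearly level with the bottom. The top quintile was 1.21 times as high as the bottom quintile (1.04 to 1.42). Without the bin filter, where the score was refitted and its sign set anew, this ratio was 0.793 (0.659 to 0.956). Whether its top quintile held the same bins was not tested. In bins above the median of contacts, with the main score, the ratio was 1.07 (0.837 to 1.36). The interval also reached 1 when chromosome 2 (1.17, 0.998 to 1.38), 3 (1.15, 0.978 to 1.35), 9 (1.16, 0.987 to 1.36), 11 (1.14, 0.971 to 1.35) or 19 (1.16, 0.994 to 1.36) was left out. Divided by the value of the same quintile on different chromosomes, the local values from bottom to top were 1.25 (1.10 to 1.42), 1.08 (0.914 to 1.27), 1.26 (1.08 to 1.45), 1.31 (1.14 to 1.496) and 1.38 (1.25 to 1.51), and each interval overlaps those next to it.

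The distances are given separately, without a test of one against the other. At 1 Mb the quintiles from bottom to top had 1.43, 1.41, 1.55, 1.43 and 1.76, with all 5 intervals above 1. At 2 Mb the intervals of the bottom (1.30, 1.06 to 1.58) and the top quintile (1.53, 1.31 to 1.78) lay above 1. The second quintile had 0.790 (0.590 to 1.04), the middle 1.00 (0.792 to 1.26) and the fourth 1.21 (0.965 to 1.502). Among bins above the median of contacts, the 1 Mb interval lay above 1 for the fourth quintile (1.58, 1.26 to 1.96) and the top quintile (1.36, 1.09 to 1.67) and reached 1 for the other 3. In the same bins the 2 Mb values were 1.36 (1.01 to 1.78) in the bottom, 0.586 (0.312 to 1.00) in the second, 0.899 (0.570 to 1.35) in the middle, 0.906 (0.607 to 1.30) in the fourth and 1.35 (1.02 to 1.75) in the top quintile.

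Crossing from positive to negative score made little difference at 1 Mb. Pairs of like sign had 1.47 (1.40 to 1.55) and pairs of unlike sign 1.46 (1.36 to 1.58), a ratio of 1.01 (0.922 to 1.10). At 2 Mb the values were 1.21 (1.14 to 1.28) and 1.12 (1.04 to 1.21), a ratio of 1.08 (0.977 to 1.19). Over both distances the ratio was 1.06 with an interval of 0.996 to 1.14. The ratio was 0.988 without the bin filter, where the score was refitted (0.929 to 1.05). In bins above the median of contacts, with the main score, it was 0.984 (0.891 to 1.09). The balanced setting gave 0.841, but its score was refitted without a factor for each bin, so it is not the same contrast. On different chromosomes, like over unlike sign was 1.10, and that value is within the interval at both distances. The score was computed from these same trans contacts, which raises this value, so it is no independent yardstick for the local ratios.

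Within-bin contacts did not rise toward the top of the score. The bottom quintile had 3.45 (3.18 to 3.74), the second 3.28 (3.01 to 3.58), the middle 3.32 (3.04 to 3.61), the fourth 2.68 (2.43 to 2.94) and the top 3.58 (3.29 to 3.88). Top over bottom was 1.04 (0.922 to 1.16), and the fourth quintile was 0.776 times the bottom (0.685 to 0.878).

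**Figure D4:**
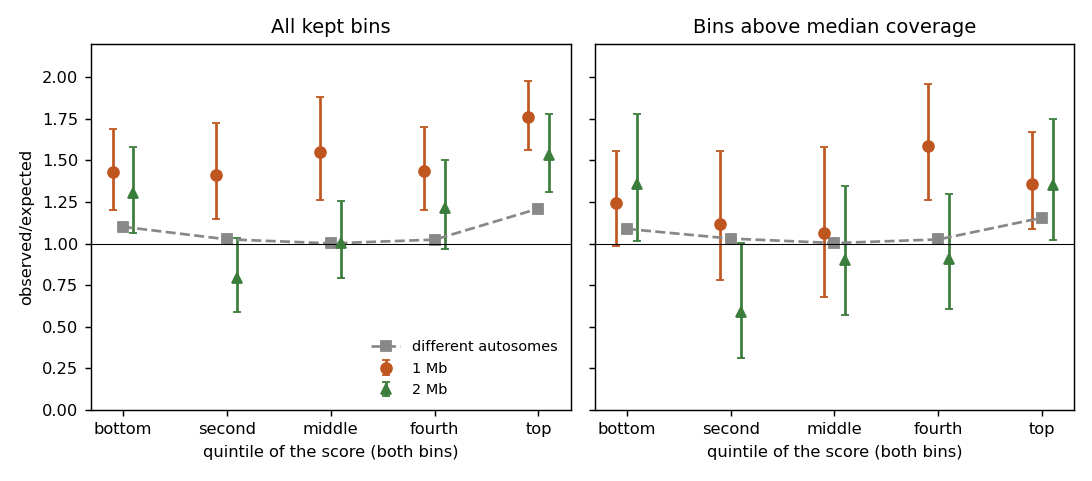
Observed/expected contacts at 1 Mb (circles) and 2 Mb (triangles) for pairs with both bins in the same quintile of the score from trans contacts, and for bins of that quintile on different autosomes (squares), over all kept bins (left) and bins above the median of contacts (right); bars are 95% Poisson intervals. Over all kept bins the 1 Mb values lie between 1.41 and 1.76, and the 2 Mb values are highest in the bottom quintile, at 1.30, and the top quintile, at 1.53.

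Against 50% of the squared factor, every autosome had more within-bin contacts than expected, with a mean over chromosomes of 3.29 ± 0.826 (SD, n = 19 autosomes). Against the full squared factor the interval lay above 1 on 16 autosomes and reached 1 on chromosomes 16 (1.03, 0.809 to 1.29), 8 (1.19, 0.974 to 1.45) and 18 (1.25, 0.998 to 1.54). The interval lay above 1 on 19 autosomes within bins, on 16 at 1 Mb and on 6 at 2 Mb, and below 1 on 0 at each distance. The means were 1.47 ± 0.201 (SD, n = 19 autosomes) at 1 Mb and 1.17 ± 0.146 (SD, n = 19 autosomes) at 2 Mb. At 1 Mb the highest were chromosomes 7 at 1.78 (1.51 to 2.09), 11 at 1.72 (1.45 to 2.02) and 16 at 1.72 (1.42 to 2.06). The lowest were chromosomes 19 at 1.16 (0.856 to 1.53), 10 at 1.17 (0.971 to 1.40) and 4 at 1.19 (0.963 to 1.44). Neighbours in this order overlap in their intervals.

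Chromosome 16, high at 1 Mb, was the lowest of the 19 within bins at 2.06 (1.62 to 2.59) and at 2 Mb at 0.982 (0.758 to 1.25). Chromosome 11 had the highest value at 2 Mb, 1.499 (1.25 to 1.79). Over the 19 autosomes Pearson's r was 0.415 between the within-bin and 1 Mb values, 0.107 between 1 and 2 Mb, and 0.0339 between the 1 Mb value and the number of bins of the chromosome. These describe 1 map whose chromosomes share bin factors.

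Chromosome 7 stood highest within bins, with 248 contacts in 128 kept bins and 5.54 times the expected number (4.87 to 6.27). That was 1.77 times the value of the other autosomes together (1.55 to 2.02). Coverage had removed 16.3% of its bins. Among bins above the median of contacts it had 3.37 (2.71 to 4.13), 1.34 times the others (1.07 to 1.66), and without called bins 3.19, 1.23 times the others (1.03 to 1.47). Without chromosome 7 the within-bin value of all autosomes was 3.13. At 2 Mb chromosome 7 had 1.00 (0.796 to 1.25).

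**Figure D5:**
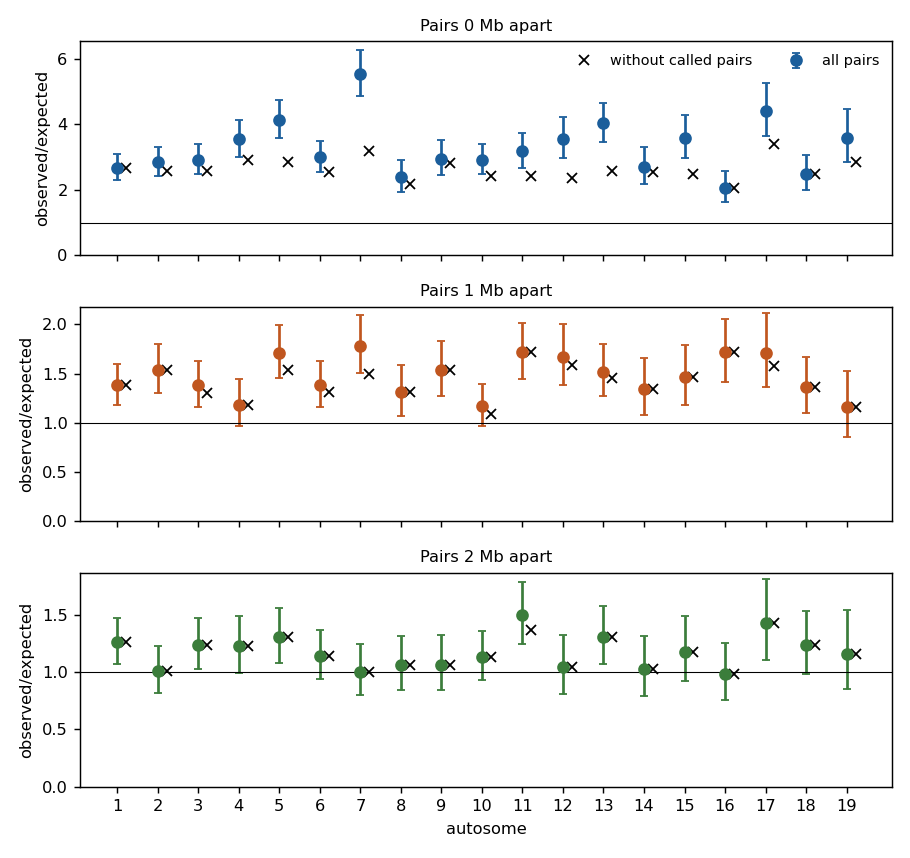
Observed/expected contacts by autosome for pairs 0, 1 and 2 Mb apart, with 95% Poisson intervals, and the same without the pairs called in the single-pair test (crosses). Within bins chromosome 7 lies highest at 5.54 and falls to 3.19 without its called pairs, while chromosome 16 lies lowest at 2.06.

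Each pair was also set against its own expected count in an exact Poisson test, 1-sided for more contacts and adjusted by the Benjamini-Hochberg method over all 2741311 pairs of kept bins. An adjusted p under 0.05 counted as a call. Of all pairs, 0.00317% were called, of pairs on different chromosomes 0.000347% and of same-autosome pairs over 2 Mb apart 0.000747%. Among members, 57 of 2231 within-bin pairs (2.55%), 11 of 2130 pairs 1 Mb apart (0.516%) and 1 of 2075 pairs 2 Mb apart (0.0482%) were called. At an unadjusted p under 0.05 the shares were 16.9%, 7.56% and 5.01%, against 2.78% of all pairs, 2.76% of pairs on different chromosomes and 2.97% of same-autosome pairs over 2 Mb apart. The called pairs carried 29.7% of the surplus within bins, 11.3% at 1 Mb and 4.34% at 2 Mb. Without them the values were 2.61 (2.50 to 2.73), 1.42 (1.36 to 1.48) and 1.17 (1.11 to 1.22).

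The 57 called bins held 4 to 24 contacts with themselves, with a median of 9. They lay on 16 autosomes, 13 of them on chromosome 7, which has 22.8% of the called bins and 5.74% of the kept bins. Chromosomes 1, 16 and 18 had 0. Of the called bins, 34 (59.6%) were in the lowest quartile of coverage, where the expected count is small, and 4 were in the highest. Their median of contacts on other chromosomes was 1236. Outside the called bins, the lowest coverage quartile had a within-bin value of 3.51 (3.13 to 3.92), against 2.32 (2.15 to 2.49) for the highest, a ratio of 1.52 (1.32 to 1.73). Because the called bins were picked for high within-bin counts, these values cannot decide how contacts follow coverage.

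The strongest of them were far above their expected counts. The lowest p was that of chromosome 3 from 93000001 to 94000000 (mm9), with 19 contacts where 0.126 were expected (exact Poisson test, adjusted p = 1.73e-28). This bin had 912 contacts on other chromosomes, at percentile 6.16 of coverage. Chromosome 13 from 74000001 to 75000000 had the highest count, 24 where 0.528 were expected (exact Poisson test, adjusted p = 2.31e-25), and stood at percentile 85.4 of coverage, so a high count was not limited to poorly covered bins. Chromosome 13 also held the bin from 62000001 to 63000000, with 18 contacts against 0.154, and that from 50000001 to 51000000, with 14 against 0.116. On chromosome 5, the bin from 146000001 to 147000000 had 21 contacts against 0.312 and that from 110000001 to 111000000 had 18 against 0.284. The other 2 of the 8 named bins lay on chromosomes 19 and 4. Chromosome 19 from 39000001 to 40000000 held 17 contacts against 0.201. Chromosome 4 from 3000001 to 4000000, 3 Mb from the low-coordinate end and beside a left-out bin, held 16 against 0.177. Coverage percentiles of the 8 named bins ran from 5.54 to 85.4, and their score percentiles from 2.71 to 55.4.

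Bins with many contacts with themselves also met their neighbours more, in contacts that the first count does not include. Pairs 1 Mb apart that included a called bin held 181 contacts, 3.71 times the expected number (3.19 to 4.29), against 1.40 (1.34 to 1.46) for pairs of other bins. At 2 Mb the values were 1.51 (1.19 to 1.89) and 1.16 (1.11 to 1.22). By number of within-bin contacts, pairs 1 Mb apart with a bin of 0 contacts had 1.39 (1.32 to 1.47), of 1 contact 1.41 (1.33 to 1.497), of 2 contacts 1.55 (1.44 to 1.67), of 3 contacts 1.51 (1.35 to 1.69) and of 4 or more 2.45 (2.21 to 2.71). The step thus lay between bins of 3 and of 4 or more contacts, and bins with 0 contacts of their own still exceeded the expected number at 1 Mb. The within-bin counts of neighbouring bins had a Pearson r of 0.107 over 2130 pairs, and 9 pairs of called bins were adjacent. Coverage was not matched in these comparisons, and its part was not tested. Called bins had a median of 1236 contacts on other chromosomes, against 1584.5 for the other kept bins. Pairs 1 Mb apart with both bins in the lowest coverage quartile had 2.23 times the expected contacts. By number of within-bin contacts, the median was 1488 for bins of 0 and 1542 for bins of 4 or more.

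At 1 Mb the strongest pair joined chromosome 7 from 48000001 to 49000000 with the next bin to 50000000. It had 12 contacts where 0.496 were expected (exact Poisson test, adjusted p = 3.51e-08), while these bins had 5 and 2 contacts with themselves. The second of that pair met its next neighbour, to 51000000, 7 times against 0.447. Next came chromosome 3 from 93000001 with the bin to 95000000, on 9 contacts against 0.346, which includes the bin with the lowest within-bin p. Chromosome 7 from 24000001 to 26000000 had 7 contacts against 0.234, chromosome 12 from 115000001 to 117000000 had 6 against 0.149, chromosome 13 from 61000001 to 63000000 had 6 against 0.217 and chromosome 6 from 57000001 to 59000000 had 7 against 0.430. The only one of the 8 with neither bin in the lowest quartile of coverage was chromosome 5 from 72000001 to 74000000, with 11 contacts against 1.03 and bins at percentiles 96.4 and 54.9. Of the 11 called pairs, 4 had both bins in the lowest quartile of coverage, as did 238 of all 2130 pairs 1 Mb apart. At least 1 such bin was present in 9 of the 11, and this share was not counted over all pairs. Pairs that touched a bin called within itself made up 5 of the 11 and 96 of the 2130.

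At 2 Mb a single pair was called, joining chromosome 11 from 49000001 to 50000000 with the bin from 51000001 to 52000000. It had 12 contacts where 0.664 were expected (exact Poisson test, adjusted p = 7.14e-07). Its bins lay at coverage percentiles 44.1 and 38.0 and had 2 contacts each with themselves. The pair with the next lowest p was shifted by 1 bin, from 50000001 to 51000000 with 52000001 to 53000000, and held 7 contacts against 1.06 without passing (exact Poisson test, adjusted p = 0.832). The other 6 named pairs held 4 to 7 contacts where 0.432 to 1.52 were expected, each with an adjusted p of 1 in the exact Poisson test.

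Windows of 10 bins showed where these pairs gathered. Members inside a window, 0 to 2 Mb apart, were summed for 2204 windows with at least 5 expected contacts. The median window had 1.61 times the expected number, the percentiles 5 and 95 were 0.973 and 3.29, and 5.58% lay below 1. The highest window was chromosome 7 from 42000001 to 52000000, with 57 contacts and 9.99 times the expected number (7.56 to 12.9). It had 5 kept bins, and its surplus lay within bins (31 contacts against 1.63) and at 1 Mb (24 against 2.40) but not at 2 Mb (2 against 1.68). The second, chromosome 7 from 21000001 to 31000000, had 8.71 (6.35 to 11.7) on 45 contacts in 7 kept bins.

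The next windows were chromosome 17 from 15000001 to 25000000 at 7.09 (5.02 to 9.73), chromosome 13 from 59000001 to 69000000 at 6.80 (4.88 to 9.23), chromosome 3 from 90000001 to 100000000 at 6.34 (4.79 to 8.24) and chromosome 12 from 112000001 to 121257530, its high-coordinate end, at 5.51 (4.20 to 7.09). In all 6 windows the median bin had fewer contacts on other chromosomes than the median of 1576 over kept bins. It had 1485 in the highest window and between 1020 and 1248 in the other 5. Of the 3 lowest windows described next, 2 were below that median too.

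Windows with few local contacts were also found. The lowest was chromosome 5 from 77000001 to 87000000, where 7 kept bins held 1 contact against 6.29 expected, a value of 0.159 (0.00403 to 0.886), and the median bin had 1301 contacts on other chromosomes. Chromosome 16 from 38000001 to 48000000 had 3 contacts and 0.409 (0.0843 to 1.19), with 1241 contacts on other chromosomes in its median bin, and chromosome 3 from 107000001 to 117000000 had 7 contacts and 0.4997 (0.201 to 1.03), with 1632.5. The windows at both extremes were picked from 2204 overlapping ones for their values, which are given as a description.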

How the data were processed

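The deposited table, pooled and balanced by the authors, lists a signal for pairs of 1 Mb bins, and a second table gives their positions. HiC-Pro 2.7.8, bedtools and mm9 appear, without their roles, in the submitters' processing notes. The aligner and any minimum distance within a bin are not given in the sources used. Dividing the signal by 1 factor for each bin returned contacts: all 1365118 listed pairs of different bins and all 1375 of a bin with itself came out whole within 0.01. Unlisted pairs of kept bins counted as 0. Bin factors were fitted to trans totals of the kept bins of autosomes and X. Recovered contacts were the main setting and the balanced signal an alternative. The members and all strata, some added after the values were seen, were chosen with earlier results of these data known. Named items are the 3 highest and 3 lowest autosomes at 1 Mb, the 8 pairs of lowest p per distance, and the 6 highest and 3 lowest windows without overlap. No test compared samples. The steps were tested on simulated data. Python 3.11.15, numpy 2.4.6, scipy 1.17.1, pandas 2.3.3 and matplotlib 3.10.9 were used. Coordinates are 1-based on mm9. No sequence or gene is given, because no genome or annotation of that build was used here.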

Additional observations from a re-analysis of the deposited data

Results flagged for a closer look

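Some same-chromosome signal lay outside the member pairs. Contacts within 1 bin of X reached 4.80 times the expected number (95% Poisson interval 3.96 to 5.75) on 116 contacts in 110 kept bins, with 1.97 (1.58 to 2.43) at 1 Mb and 1.36 (1.03 to 1.76) at 2 Mb. Autosomal bins left out for low coverage held 93 contacts within 182 bins that had any trans partner, a value of 22.3 (18.0 to 27.4). Where such a bin has few listed pairs, its factor is known only up to a whole multiple, so both the recovered count and the ratio of these bins are uncertain beyond the interval.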

How the results depend on the processing

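The values within bins, at 1 Mb and at 2 Mb stayed above 1 under every alternative run. Within bins the value was 4.12 in the balanced signal, 2.94 with the 80% filter, 2.7001 with counts capped at 3, 1.63 against the full squared factor, 2.61 without the called pairs, 2.55 in bins above the median of contacts and 3.13 without chromosome 7. At 1 Mb it was 1.59 in the balanced signal, 1.39 with the 80% filter, 1.38 with capped counts and 1.36 in bins above the median. At 2 Mb it was 1.12 in bins above the median. The 1 Mb ratio to trans pairs of the same offset was 1.55 in the balanced signal, 1.35 with the 80% filter and 1.35 with capped counts. The ratio of lowest to highest coverage quartile at 1 and 2 Mb was 1.97 without the bin filter and 1.08 with the 80% filter. The low-coordinate end over the inner part was 1.497 for ends of 5 Mb and 0.960 in bins above the median. Every setting with other bins or counts refitted the score and set its sign anew. Top over bottom score quintile was 0.793 without the bin filter, on such a refitted score. In the balanced signal it was 1.58, on a score refitted without a factor for each bin. With the main score, the balanced signal at 1 and 2 Mb was 1.76 in the top and 1.48 in the bottom quintile. Like over unlike sign was 0.988 without the bin filter, 0.984 in bins above the median and 0.841 in the balanced signal with its refitted score. The cause of these shifts was not tested. The 80% filter called 37 member pairs, all among the 69 of the main setting, and no filter called 83, which included all 69. Leaving out each autosome moved the coverage ratio between 1.28 and 1.53, the score ratio between 1.14 and 1.34, the low-coordinate ratio between 1.12 and 1.21 and the high-coordinate ratio between 1.11 and 1.198. Of the other values under an alternative, 199 kept to the main interval or count range. The settings without the called pairs and with bins above the median, the full squared factor by autosome, and all alternatives of the offset ratio, were chosen after the data were seen. Depth limits single pairs: the called members held 4 contacts or more. No paired analysis was possible because the labels give 1 group and the map is pooled.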

Other observations

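Among pairs of bins on the same autosome more than 2 Mb apart, 1 was called, and it was singled out after its value was seen. On chromosome 1, the bin from 46000001 to 47000000 and the one 7 Mb further on, ending at 54000000, shared 17 contacts where 0.566 were expected (exact Poisson test, adjusted p = 2.16e-14). This count was above that of every member pair 1 or 2 Mb apart, where the highest was 12. Of 133817 such pairs 0.000747% were called.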
